A study of Mus musculus with 8 samples.

Results

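This account covers 9 genes of protein kinase A, the cAMP-dependent protein kinase, in the mouse striatum. They are the 2 catalytic subunits Prkaca and Prkacb, the 4 regulatory subunits Prkar1a, Prkar1b, Prkar2a and Prkar2b, and the 3 anchoring proteins Akap5, Akap11 and Akap9. The genes were chosen by name and found by matching Ensembl identifiers to mouse symbols, and all 9 were present among the 31417 genes of the count table. RNA was sequenced from the striatum of 8 mice aged 12 months, 4 wild-type controls and 4 Dclk3 knockouts, with 1 striatum of 1 mouse in each library. The labels give no strain, sex or treatment, and which part of Dclk3 was deleted is not stated there. Dclk3 encodes doublecortin-like kinase 3, a protein kinase enriched in striatal neurons.

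In the absence of cAMP, protein kinase A rests as a holoenzyme in which a dimer of regulatory subunits holds catalytic subunits inactive. Binding of cAMP to the regulatory subunits frees the catalytic subunits, which then phosphorylate serines and threonines on many proteins. Anchoring proteins bind the regulatory dimer and keep the enzyme at a membrane, a synapse or an organelle. In the striatum the kinase acts downstream of dopamine D1 and adenosine receptors, and DARPP-32 is among its best known substrates.

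Libraries held between 24441242 and 37145559 gene counts, and single counts of the members ran from 1355 to 30247. Counting error alone, taken as Poisson, would give the members coefficients of variation of 0.625% to 2.41% within a genotype, and the observed ones were 2.31 to 14.4 times as large. Levels are given as CPM, the count of a gene scaled to a common library size, after TMM scaling of the libraries, in the order wild-type replicates 1 to 4 and knockout replicates 1 to 4. Dclk3 measured 94.7 CPM ± 15.8 across wild-type mice and 22.7 CPM ± 3.55 across knockouts (SD, n = 4 each), and the groups did not overlap. Medium spiny neuron markers were all detected in every library, with a summed level of 3885 to 4549 CPM in the wild-type libraries and 3789 to 4339 CPM in the knockout. Some libraries also stood apart in markers of neighbouring tissue. Choroid plexus markers summed to 2935 CPM in wild-type replicate 4 and to 40.7 to 244 CPM in the other 7 libraries. Thalamic markers summed to 579 CPM in knockout replicate 4 and 378 CPM in knockout replicate 1, against 210.0 to 339.9 CPM elsewhere. In such bulk tissue, fewer cells of a type and less RNA per cell cannot be told apart.

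Type I regulatory subunits were the most abundant transcripts of the group, followed by the catalytic subunits. Per kilobase of annotated exon, averaged over the 8 libraries, Prkar1b stood at 196 CPM per kb (range 176 to 223) and Prkar1a at 174 (166 to 189). Their ranges overlapped, but per kilobase Prkar1b was above Prkar1a in 8 of 8 libraries. That order rests on the division by length. Before it, Prkar1a was the higher in wild-type replicate 1 (721 against 689.9 CPM). It was also the higher in knockout replicates 1 (730 against 671 CPM) and 4 (771 against 693 CPM). The catalytic subunits came next, Prkacb at 76.0 CPM per kb (72.3 to 81.8) and Prkaca at 69.95 (66.8 to 75.7), with overlapping ranges. Akap11 and Prkar2b did not differ beyond their spread, at 34.4 CPM per kb (31.1 to 38.2) and 33.7 (31.5 to 36.4), and each was the higher of the pair in 4 of 8 libraries. Below them, with no overlap between neighbours, came Akap5 at 27.7 CPM per kb (23.8 to 30.5), Prkar2a at 9.59 (8.71 to 10.7) and Akap9 at 5.70 (4.49 to 6.48). Among the 16511 genes tested, these levels per kilobase ran from the 57.6th percentile for Akap9 to the 99.4th for Prkar1b.

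The order of the 9 genes was the same when the longest annotated transcript was used as the length, but single levels moved. Prkacb, with 8772 bases of exon over all its transcripts and 4347 in the longest, then stood at 153 CPM per kb, while Prkaca stood at 76.5. The near-equal levels of the catalytic subunits therefore hold only for the length over all exons.

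No difference between the genotypes was detected for any of the 9 genes. Of the members, 0 of 9 passed the threshold of 0.05 in edgeR's quasi-likelihood test after Benjamini-Hochberg adjustment over all genes, against 0.00606% of all 16511 genes. The adjusted p was 0.999 for each member. At an unadjusted p under 0.05 the count was also 0 of 9, where the share of all genes was 3.76%. No member had groups that did not overlap, against 1.93% of all genes. Log2 fold changes, knockout over wild type, ran from -0.11 for Prkar1b to 0.0013 for Prkacb, with a median of -0.024 over the members and -0.0011 over all genes. The estimate lay below 0 for 8 of the 9 members and for 8342 of the 16511 genes.

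The intervals show how large a difference these libraries could have missed. All 9 of the 95% intervals included 0, and together they ran from -0.28, the lower bound of Prkar1b, to 0.21, the upper bound of Akap9. For no member did the interval reach a level below 0.825 times or above 1.15 times that of wild type.

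**Figure D1:**
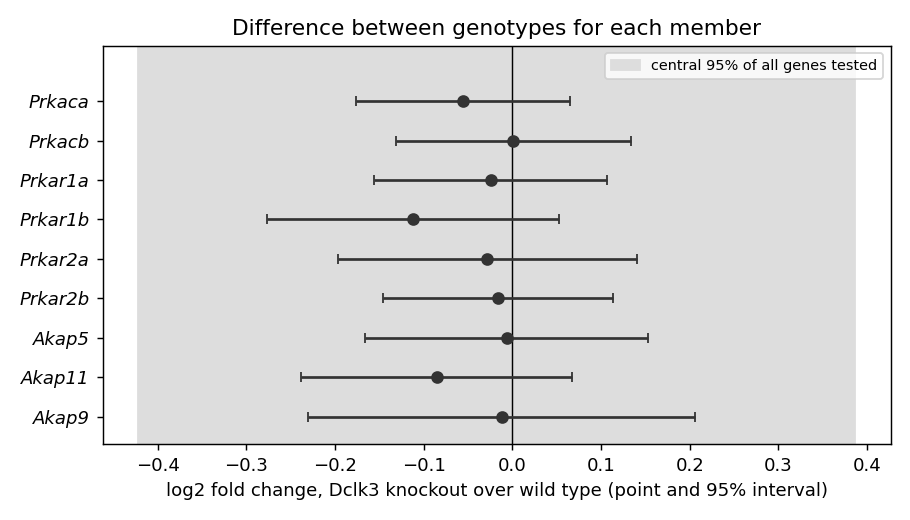
Log2 fold change of each of the 9 genes, Dclk3 knockout over wild type, as a point with its 95% interval, computed from the edgeR fit. The grey band holds the central 95% of fold changes of all 16511 genes tested, from -0.42 to 0.39. All intervals cross 0 and lie inside the band.

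The catalytic subunits carry the kinase activity. Prkaca encodes the alpha catalytic subunit and spans 83972993 to 83996443 on chromosome 8, plus strand, in GRCm38 (mm10), the build of all positions given here. Its levels were 173, 188, 174 and 174 CPM in the wild-type libraries and 169, 166, 166 and 181 CPM in the knockout. Wild-type replicate 2 was the highest library and knockout replicate 4 the next, so the groups overlapped. The means were 177 CPM ± 7.31 and 171 CPM ± 6.91 (SD, n = 4 each), for a log2 fold change of -0.056 (SE 0.056, 95% interval -0.18 to 0.065). Leaving out wild-type replicate 2 gave -0.026, and leaving out replicate 4 of the knockout gave -0.085.

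Prkacb encodes the beta catalytic subunit, which is abundant in brain, and spans 146729574 to 146812990 on chromosome 3, minus strand. It was measured at 651, 634, 664 and 718 CPM in the wild-type libraries and 659, 708, 657 and 645 CPM in the knockout. The high libraries, wild-type replicate 4 and knockout replicate 2, came from different genotypes. Both groups averaged 667 CPM, with an SD of 36.2 in wild type and 28.2 in the knockout (n = 4 each). The log2 fold change came to 0.0013 (SE 0.061, 95% interval -0.13 to 0.13), and it took the other sign, at -0.0011, with DESeq2 size factors.

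**Figure D2:**
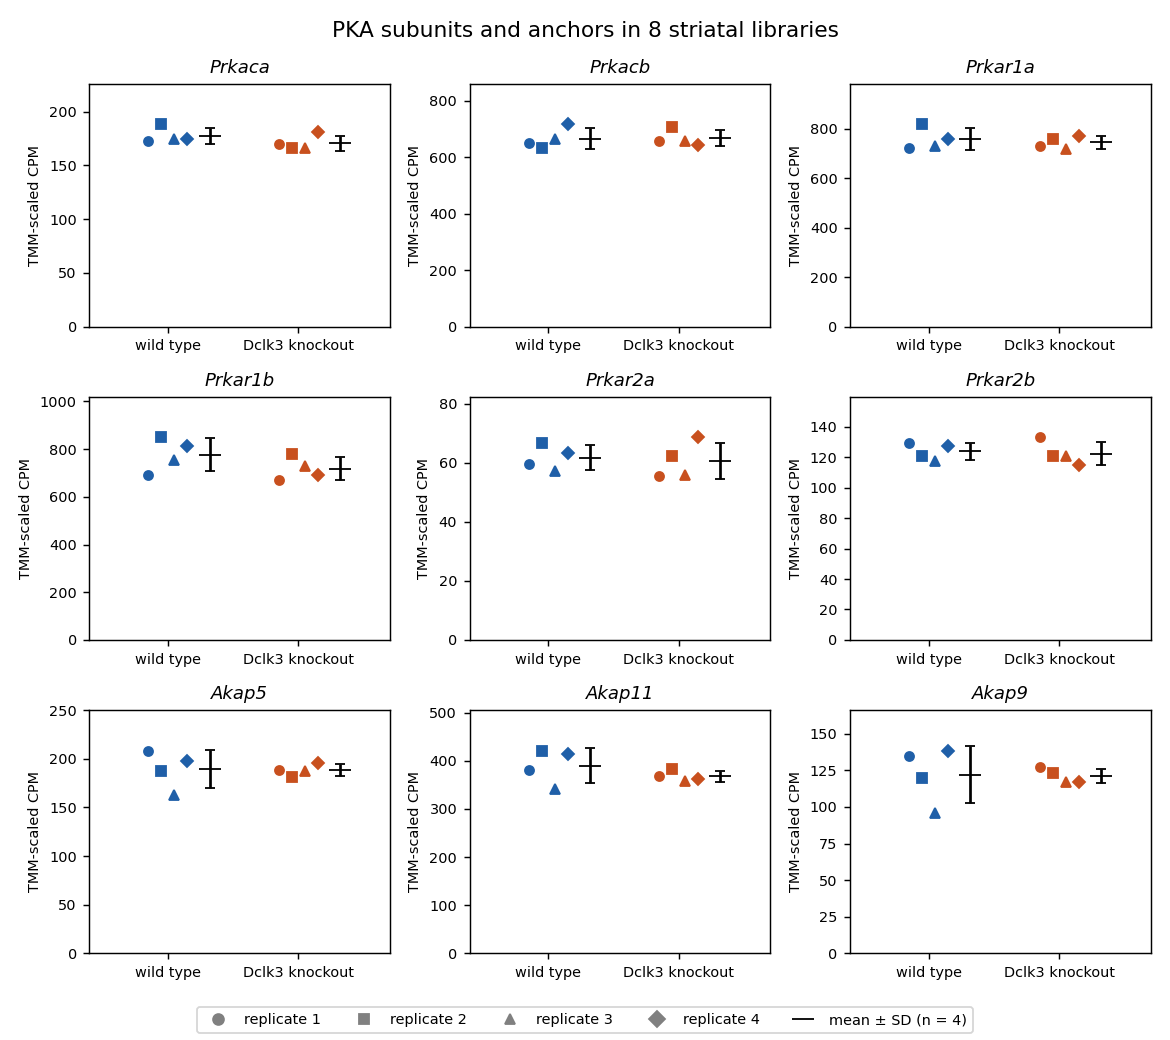
TMM-scaled CPM of the 9 genes in each library, wild type in blue and Dclk3 knockout in orange, with marker shapes for replicates 1 to 4 and black bars for the mean ± SD (n = 4); each axis starts at 0. The groups overlap in every panel, and in Akap5, Akap11 and Akap9 wild-type replicate 3 is the lowest of the 8 libraries.

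Type I regulatory subunits, RI alpha and RI beta, form the holoenzymes that are largely cytosolic. Prkar1a, which spans 109649405 to 109669656 on chromosome 11, plus strand, encodes RI alpha, which is expressed in nearly all tissues. Its levels were 721, 819, 731 and 759 CPM in the wild-type libraries and 730.0, 759.7, 719 and 771 CPM in the knockout. Of the wild-type libraries only replicate 2 lay outside the knockout range. The means were 758 CPM ± 43.9 and 745 CPM ± 24.6 (SD, n = 4 each), for a log2 fold change of -0.024 (SE 0.061, 95% interval -0.16 to 0.11).

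Active catalytic subunits phosphorylate the transcription factor CREB, whose preferred site is the cAMP response element. The promoter windows of the members were therefore searched for it, from 250 bases before to 50 bases after each RefSeq transcription start. All 9 members matched, with 23 windows. The full element TGACGTCA, searched on both strands, was present in 588 of 32851 windows of all genes (1.79%). Among the members it occurred in Prkar1a alone, in 2 overlapping windows that hold the same copy at 109650900 to 109650907 on chromosome 11. The shorter letters TGACG, which the full element contains on each strand, were in 20.8% of all windows and in 8 of the 23 windows of the members, and Akap11 had 3 copies in 1 window, as many as the Prkar1a windows with the full element. These matches are letters in a sequence, no binding was measured here, and neither gene passed the test between genotypes. The Prkar1a window with its element, and the Akap11 window with the 3 shorter copies, are shown because they are the members' richest in these letters. The first is chr11:109650699-109650998 on the plus strand and the second chr14:78536811-78537110 on the minus strand, in GRCm38.p6 from RefSeq, 5′ to 3′. Capitals mark the full element in Prkar1a, and TGACG or its reverse complement in Akap11.
Prkar1a: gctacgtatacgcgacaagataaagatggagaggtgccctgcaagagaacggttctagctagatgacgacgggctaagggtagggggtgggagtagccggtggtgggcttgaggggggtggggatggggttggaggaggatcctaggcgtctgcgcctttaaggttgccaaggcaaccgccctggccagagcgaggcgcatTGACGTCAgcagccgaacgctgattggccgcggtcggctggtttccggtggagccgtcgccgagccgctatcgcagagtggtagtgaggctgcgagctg
Akap11: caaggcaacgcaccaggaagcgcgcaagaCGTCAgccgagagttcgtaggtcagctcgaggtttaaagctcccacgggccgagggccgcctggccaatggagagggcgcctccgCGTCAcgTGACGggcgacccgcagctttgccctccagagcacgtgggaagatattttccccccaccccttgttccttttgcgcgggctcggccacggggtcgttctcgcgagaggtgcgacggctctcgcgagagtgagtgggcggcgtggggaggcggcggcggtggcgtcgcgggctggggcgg

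Prkar1b encodes RI beta, a subunit found mainly in neurons, and spans 139017306 to 139150001 on chromosome 5, minus strand. It had the lowest estimate of the 9 genes. Its levels were 689.9, 849, 753 and 814 CPM in the wild-type libraries and 671, 779.7, 729.5 and 693 CPM in the knockout. Wild-type replicate 1 lay among the low knockout libraries and knockout replicate 2 among the high wild-type ones. The means were 776 CPM ± 70.1 and 718 CPM ± 47.5 (SD, n = 4 each), for a log2 fold change of -0.11 (SE 0.076, 95% interval -0.28 to 0.053) with an unadjusted p of 0.165 and an adjusted p of 0.999 (edgeR). Without wild-type replicate 1 the log2 fold change was -0.17 and the unadjusted p 0.0449, with an adjusted p of 0.952. Without wild-type replicate 2 it was -0.066 with an unadjusted p of 0.401 (edgeR), and limma-voom gave -0.054. Part of its exon sequence, 8.95%, is shared with Gm15672 on the same strand. How reads of the shared part were counted is not stated. The overlap could therefore raise or lower the counts of Prkar1b, and with them its level beside Prkar1a.

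Prkar1b varied with the markers of cortical glutamatergic neurons, a relation noticed after its values were seen. The marker score, the mean over the 8 markers of log2 CPM centred on all libraries, was highest in wild-type replicate 4 (0.32), knockout replicate 2 (0.22) and wild-type replicate 2 (0.13). It was lowest in knockout replicate 4 (-0.56), wild-type replicate 1 (-0.16) and knockout replicate 1 (-0.11). The 3 libraries highest and the 3 lowest in Prkar1b were the same libraries. The relation was not particular to cortical markers. The 3 libraries lowest in Prkar1b were also the 3 highest in the scores of oligodendrocyte markers (0.13 to 0.21) and microglia markers (0.050 to 0.18). Wild-type replicates 2 and 4 were lowest in both, at -0.30 and -0.17 for oligodendrocytes and -0.098 and -0.17 for microglia. Which of these lists bears on Prkar1b was not tested. Of the 8 cortical markers 7 had estimates below 0 in the knockout, the median being -0.17 on the log2 scale, and 0 of 8 passed the threshold. Their summed level was 1006 to 1467 CPM in the wild-type libraries and 756 to 1233 CPM in the knockout, and none was at 0 in any library. In other lists, all 10 oligodendrocyte, 10 microglia, 10 thalamic and 5 blood cell markers had estimates above 0, as did 8 of 10 astrocyte markers. All 8 choroid plexus and 7 ependymal markers lay below 0. An unadjusted p under 0.05 (edgeR) was reached by 3 oligodendrocyte, 4 astrocyte, 3 blood cell and 1 ependymal marker. It was reached by 0 cortical, microglia, thalamic or choroid plexus markers, and by 3.76% of all genes. The other scores were not used as covariates. With the cortical score as a covariate, a fit added after seeing the data, the log2 fold change of Prkar1b was -0.063 with an unadjusted p of 0.372 (edgeR). With the same covariate Prkaca was at -0.075, Prkar2a at -0.053 and Akap11 at -0.062. Akap11 shared the 3 highest libraries but 1 of the 3 lowest. Prkacb and Prkar1a shared 2 at each end, Prkaca and Prkar2a 2 of the highest and 1 of the lowest, and Prkar2b and Akap9 1 at each end. Akap5 shared 1 of the highest and 0 of the lowest.

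**Figure D3:**
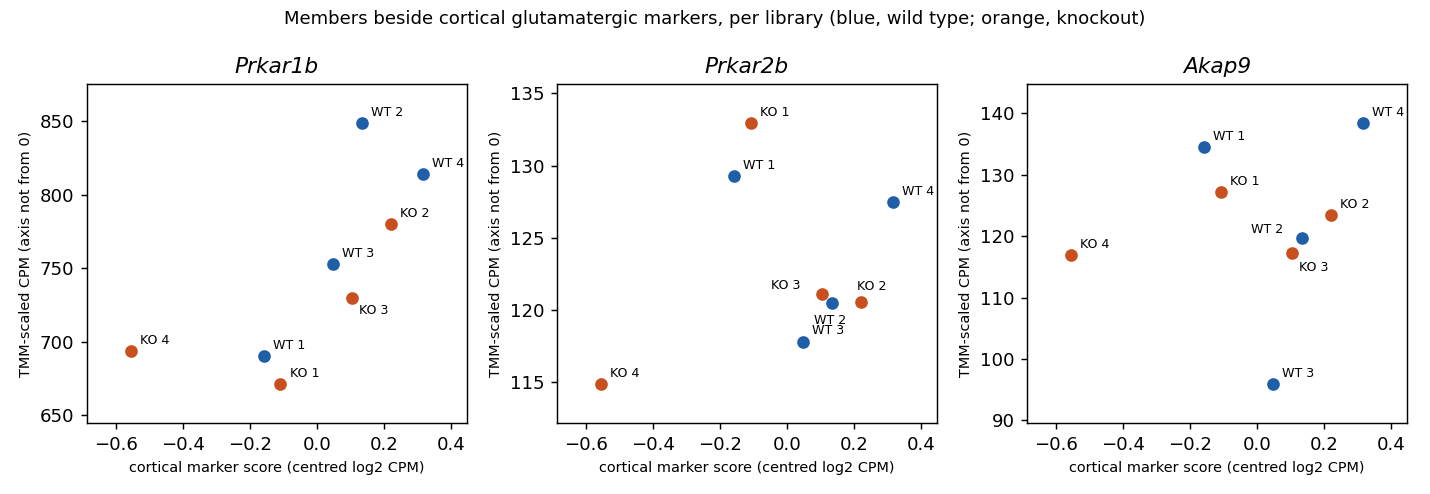
TMM-scaled CPM of Prkar1b, Prkar2b and Akap9 against the cortical marker score (mean centred log2 CPM of 8 markers) in each of 8 libraries, wild type (WT) in blue and Dclk3 knockout (KO) in orange; the vertical axes do not start at 0. Prkar1b is highest in the libraries with the highest scores, while Akap9 is lowest in wild-type replicate 3, whose score is 0.047.

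Type II regulatory subunits, RII alpha and RII beta, are the forms that most anchoring proteins bind tightly. Prkar2a encodes RII alpha and spans 108689314 to 108750436 on chromosome 9, plus strand, 2689 kb from Dclk3. Its levels were 59.5, 66.7, 57.2 and 63.4 CPM in the wild-type libraries and 55.6, 62.4, 55.7 and 68.5 CPM in the knockout. Both the highest library, knockout replicate 4, and the lowest, knockout replicate 1, were knockouts. The means were 61.7 CPM ± 4.20 and 60.6 CPM ± 6.21 (SD, n = 4 each), for a log2 fold change of -0.028 (SE 0.078, 95% interval -0.20 to 0.14).

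Prkar2b encodes RII beta, the main type II subunit of brain and a subunit enriched in the striatum. The gene spans 31958476 to 32061296 on chromosome 12, minus strand. Wild-type libraries had 129, 121, 118 and 127 CPM, and knockout libraries 133, 121, 121 and 115 CPM. Knockout libraries again held both the highest and the lowest value. The means were 124 CPM ± 5.47 and 122 CPM ± 7.61 (SD, n = 4 each), with a log2 fold change of -0.017 (SE 0.060, 95% interval -0.15 to 0.11).

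The make-up of the regulatory pool varied little over the 8 libraries. Counted per kilobase, Prkar1b made up 48.2% ± 1.41 of regulatory subunit reads in wild type and 46.6% ± 1.72 in the knockout (SD, n = 4 each). Prkar1a made up 41.5% ± 0.838 and 42.7% ± 1.35, Prkar2b 8.05% ± 0.730 and 8.31% ± 0.720, and Prkar2a 2.29% ± 0.0724 and 2.35% ± 0.219. Prkaca supplied 48.4% ± 2.07 of catalytic subunit reads in wild type and 47.4% ± 1.83 in the knockout. That share was 33.7% and 32.8% when the longest transcript was used as the length. The regulatory shares also moved with that length, in wild type and knockout. Prkar1b then made up 52.6% and 51.1%, Prkar1a 38.6% and 39.8%, Prkar2b 6.58% and 6.81%, and Prkar2a 2.22% and 2.29%.

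**Figure D4:**
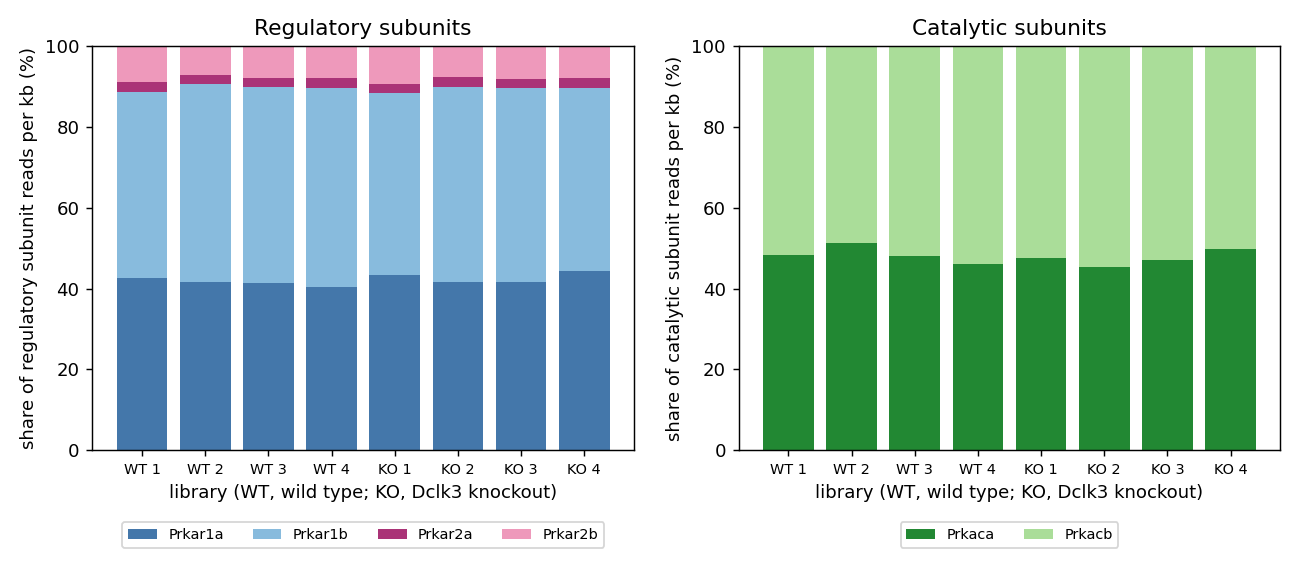
Share of each regulatory subunit (left) and each catalytic subunit (right) in reads per kilobase of exon, in percent, for the 4 wild-type (WT) and 4 Dclk3 knockout (KO) libraries. Prkar1a and Prkar1b fill most of every regulatory bar, Prkar2b takes 7.24% to 9.33%, and the catalytic bars are divided near the middle.

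Ratios within a library do not depend on how libraries are scaled, and 5 were compared between the genotypes. All 5 were taken from reads per kilobase of annotated exon, so their levels depend on the length used. Type I exceeded type II regulatory transcripts 7.78- to 9.49-fold in wild type and 7.65- to 8.89-fold in the knockout. Prkar1b exceeded Prkar1a 1.08- to 1.22-fold in wild type and 1.02- to 1.16-fold in the knockout. The difference in this log2 ratio, knockout minus wild type, was -0.087, and its exact two-sided permutation p over 70 assignments was 0.171 (0.643 adjusted over the 5 ratios). Prkar2b exceeded Prkar2a 3.15- to 3.79-fold in wild type and 2.93- to 4.18-fold in the knockout. Catalytic reads per kilobase were 0.325 to 0.366 of regulatory reads per kilobase in wild type and 0.349 to 0.367 in the knockout. The other 4 ratios differed by -0.058 (Prkaca over Prkacb), 0.013 (Prkar2b over Prkar2a), -0.050 (type I over type II) and 0.038 (catalytic over regulatory) on the log2 scale. Their exact permutation p-values were 0.514, 0.914, 0.457 and 0.514, and 0.0286 is the smallest unadjusted value the design allows. After adjustment over the 5 ratios, 1 ratio alone at that value would not pass 0.05. The adjusted values therefore could not show a shift of a single ratio. Single libraries moved these differences widely. Leaving out each library in turn gave -0.10 to -0.0047 for Prkaca over Prkacb, with the value nearest 0 in the absence of wild-type replicate 2. Type I over type II ran from -0.10, with wild-type replicate 1 left out, to -0.0055, with replicate 1 of the knockout left out, and was -0.0080 in the absence of wild-type replicate 2. Catalytic over regulatory ran from 0.0029 without wild-type replicate 2 to 0.060 without wild-type replicate 1.

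The 3 anchoring proteins place the kinase at different sites. Akap5, known as AKAP79/150, holds protein kinase A, protein kinase C and calcineurin at the postsynaptic membrane. Its span is 76324891 to 76334153 on chromosome 12, plus strand. The libraries gave 208, 188, 163 and 198 CPM in the wild-type libraries and 189, 181, 187 and 196 CPM in the knockout. All knockout values lay within the wild-type range. The means were 189 CPM ± 19.6 and 188 CPM ± 5.92 (SD, n = 4 each), and the log2 fold change came to -0.0065 (SE 0.073, 95% interval -0.17 to 0.15).

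Akap11, known as AKAP220, binds the kinase together with GSK3 and serves as an autophagy receptor for RI subunits. The locus is 78492246 to 78536808 on chromosome 14, minus strand. Levels were 381, 421, 342 and 415 CPM in the wild-type libraries and 368, 382, 358 and 362 CPM in the knockout. Wild type held the lowest value and the highest, and wild-type replicates 2 and 4 lay above every knockout library. The means were 389.8 CPM ± 36.2 and 367 CPM ± 10.7 (SD, n = 4 each), for a log2 fold change of -0.085 (SE 0.070, 95% interval -0.24 to 0.067).

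Akap9 encodes AKAP450, which anchors the kinase at the Golgi apparatus and the centrosome, and another form called yotiao. The gene spans 3928054 to 4081310 on chromosome 5, plus strand, and 0.78% of its exon sequence overlaps Cyp51 on the opposite strand. It measured 134, 119.6, 95.9 and 138 CPM in the wild-type libraries and 127, 123, 117 and 117 CPM in the knockout. Again the wild-type values enclosed all knockout values. With means of 122 CPM ± 19.3 and 121 CPM ± 5.00 (SD, n = 4 each), the log2 fold change came to -0.012 (SE 0.099, 95% interval -0.23 to 0.21).

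The coefficient of variation was larger in wild type than in the knockout for 7 of the 9 members, all but Prkar2a and Prkar2b, and for 58.9% of the 16511 genes. Among the anchors, the coefficient of variation was 15.8% in wild type and 4.12% in the knockout for Akap9, 10.4% and 3.15% for Akap5, and 9.28% and 2.92% for Akap11. This difference in spread was not tested. In replicate 3 of wild type all 3 anchors were at their lowest of the 8 libraries, as were 14.9% of all genes tested. Low values in that library were not limited to anchors. Of the 9 lists of other pathway genes, 5 had their lowest score there, including other anchoring proteins (-0.11), phosphodiesterases (-0.12) and other cAMP effectors (-0.14). The same held for 3 of the 11 lists of cell type and tissue markers, those of astrocytes (-0.14), endothelium (-0.32) and choroid plexus (-1.02). The part of these differences in the anchors' values was not tested. Leaving that library out gave log2 fold changes of -0.14 for Akap11, -0.11 for Akap9 and -0.072 for Akap5. The unadjusted p of Akap11 was then 0.0365, while its adjusted p was 0.916 (edgeR). Akap11 moved the other way, to -0.046, without wild-type replicate 2 (unadjusted p 0.531) and to -0.054 without wild-type replicate 4 (unadjusted p 0.472). By the spread within genotypes on the log2 scale Prkaca was the tightest of the 9 genes, at the 6.58th percentile of all genes, and Akap9 the widest, at the 61.8th. The coefficients of variation of Prkaca were 4.12% in wild type and 4.05% in the knockout. In the knockout Akap11 (2.92%), Akap5 (3.15%) and Prkar1a (3.30%) were lower.

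The rest of the pathway was taken from lists of genes, and 0 members of any list passed the threshold in either direction (edgeR, Benjamini-Hochberg over all genes). Of 25 other anchoring proteins 24 were in the count table, and 21 passed the low-count filter and were tested. These 21 had 12 estimates above 0, 9 below and a median of 0.042 on the log2 scale. An unadjusted p under 0.05 was reached by 2 of them, a share to be read against the 3.76% of all genes. These were Cbfa2t3, a transcriptional corepressor that also binds the kinase, at 21.9 and 18.3 CPM in the 2 genotypes with a log2 fold change of -0.26, and Myrip, which links Rab27 vesicles to myosin, with -0.19. Akap8, a nuclear anchor, had 0.11. Inhibitors and a related kinase gave 3 of 4 estimates below 0 with a median of -0.076. Pkia, the main heat-stable inhibitor of the catalytic subunit in brain, measured 332 CPM ± 29.9 and 303 CPM ± 23.5 (SD, n = 4 each), for a log2 fold change of -0.13. Pkig, another inhibitor, had -0.094 and the kinase Prkx -0.059.

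Upstream of the kinase, 15 of 15 adenylyl cyclases, stimulatory G proteins and their partners, with the receptors Drd1 and Adora2a, were measured, with a median of 0.010. Adcy8 and Adcy1, both calcium-stimulated adenylyl cyclases, had log2 fold changes of 0.21 and 0.10, and Adcy6 had 0.051. The 15 phosphodiesterases that break down cAMP had a median of 0.027, with Pde1a at -0.34, Pde7a at -0.12 and Pde4a at -0.10. In both lists 0 genes reached an unadjusted p under 0.05.

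Downstream, 20 substrates and transcriptional partners had 9 estimates above 0, 11 below and a median of -0.0045. Crtc1, a CREB coactivator, was the 1 gene of these 20 whose groups did not overlap, against 1.93% of all genes, at 296 CPM ± 14.98 across wild-type mice and 279 CPM ± 6.62 across knockouts (SD, n = 4 each). Its log2 fold change was -0.084 with an unadjusted p of 0.164 (edgeR). Ppp1r1a, protein phosphatase inhibitor-1, had -0.16 and Ptpn5, the striatal-enriched phosphatase, 0.10. Immediate early genes, which neuronal activity induces in part through CREB, had 11 of 12 estimates below 0, against 8342 of all 16511 genes. Their median was -0.28. An unadjusted p under 0.05 was reached by 2 of them, against 3.76% of all genes. These were Egr4 with a log2 fold change of -0.69 and Nr4a3 with -0.46, and their groups overlapped (adjusted p 0.999 each, edgeR). The next by p was Junb, with -0.61. Their score was lowest in knockout replicate 1, at -0.68, and highest in wild-type replicate 4, at 0.40, while the other 6 libraries lay between -0.096 and 0.28. Of the other cAMP effectors all 9 were in the count table, and 8 passed the low-count filter and were tested. Of these 8, 7 were above 0, and their median was 0.084. Hcn2, a cyclic nucleotide-gated cation channel, was at 0.13 and Rapgef4, the exchange factor Epac2, at 0.084. Popdc3 was at 0.32 from means of 0.629 and 0.800 CPM.

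Proteins held by the anchors were also listed. Partners of Akap5 had 5 of 10 estimates above 0 and a median of 0.0089. An unadjusted p under 0.05 was reached by 1 of these 10, against 3.76% of all genes. This was Adrb1, the beta-1 adrenergic receptor, at 13.8 CPM ± 1.04 and 11.1 CPM ± 0.949 (SD, n = 4 each). Its log2 fold change was -0.31 with an unadjusted p of 0.00477 and an adjusted p of 0.999 (edgeR). Dlg4, the scaffold PSD-95, had 0.048. Partners of Akap9 and Akap11 had 7 of 16 above 0 and a median of -0.0031. Cdk5rap2, a centrosomal protein, was the 1 gene of those 16 whose groups did not overlap, against 1.93% of all genes, with a log2 fold change of 0.13, while Map1lc3a, an autophagosome protein, had -0.077.

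For each member, the most similar genes were sought by Pearson correlation of log2 CPM over the 8 libraries, among 13357 other genes with a mean of at least 1 CPM, predicted genes left out. They are the highest of many correlations over few libraries of the same tissue, so no test was made. Prkar1b was most like Rabif (r = 0.993, Spearman rho = 1) and Pgm2l1 (r = 0.980). Prkar1a was most like Mid2 (r = 0.991) and Ildr2 (r = 0.979), and Akap11 most like Rbm27 (r = 0.991) and Cpeb3 (r = 0.983). Prkar2a paired with Sema5a (r = 0.977) and Ddx10 (r = 0.957), and Prkar2b with Foxo1 (r = 0.941) and Dach1 (r = 0.928). Prkacb paired with Nr1d1 (r = 0.965) and Arih2 (r = 0.965), and Prkaca with Ppm1g (r = 0.961) and Pla2g3 (r = 0.959). Akap9 came closest to Tjp1 (r = 0.964) and Bbx (r = 0.957), and Akap5 to Nub1 (r = 0.935) and Ppard (r = 0.926). No member was among the 2 most similar genes of another.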

How the data were processed

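The authors deposited 1 table of raw read counts per Ensembl gene for the 8 libraries, which were poly(A)-selected and stranded, per the labels' protocols. Per the submitters' processing notes, bcl2fastq 2.17.1.14 was used and mm10 was the build. The aligner, counting tool, annotation release and strand setting are not stated in those sources. Identifiers were matched to GENCODE M21 on GRCm38: 31292 matched and 125, with 0.0436% of counts, did not.

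The counts were tested with edgeR 4.0.16 (R 4.3.3). The filterByExpr filter (minimum count 10) left 16511 of 31417 genes, and all 9 members passed it. Libraries were scaled by TMM, and a robust quasi-likelihood model of the 8 libraries held genotype as its single term, with Benjamini-Hochberg adjustment over all genes and a threshold of 0.05. Means ± SD are of TMM-scaled CPM. Levels per kilobase divide by the union of annotated exons. Log2 CPM used a prior count of 2. Ratios were compared by exact permutation in Python 3.11.15. Pathway genes named are up to 3 per list with the smallest p. Some genes this rule names are not reported here. The members and lists were chosen with earlier results of these data known. The fit was tested on simulated data. Alternatives included other scalings and filters, DESeq2 1.42.0, limma-voom (limma 3.58.1), the replicate number as a block and each library left out. No 2 libraries of a genotype were copies, with chi-square values per degree of freedom of 7.07 to 32.1.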

Additional observations from a re-analysis of the deposited data

Results flagged for a closer look

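Among 30 groups of 4 libraries examined (9 genes, Dclk3 and 5 ratios in each genotype; chance marks about 1 in 20), 1 held a library far from the others. Prkaca in wild-type replicate 2 stood at 188 CPM, while the other 3 wild-type libraries had 173 to 174 CPM.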

How the results depend on the processing

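No member passed the threshold in any of 18 alternative settings, in which their adjusted p stayed at or above 0.772. Of 162 member values 138 kept their direction and 24 changed sign, the largest of these at 0.071 (Akap9). Prkaca, Prkar1b and Akap11 kept theirs in every setting, with ranges of -0.085 to -0.026, -0.17 to -0.066 and -0.14 to -0.046 when each library was left out in turn. Prkacb was -0.0011 with DESeq2 size factors, -0.0024 with no filter on low counts and -0.0011 in the DESeq2 Wald test. Without replicate 4 of both genotypes Prkar2b was 0.027 and Akap9 0.071, and Akap9 was 0.0027 with the cortical marker score, a setting chosen after seeing the data. Leaving out each library in turn gave -0.029 to 0.039 for Prkacb, -0.048 to 0.015 for Prkar1a, -0.093 to 0.012 for Prkar2a, -0.059 to 0.012 for Prkar2b, -0.072 to 0.043 for Akap5, -0.11 to 0.054 for Akap9 and -0.067 to 0.10 for the log2 ratio of Prkar2b over Prkar2a. The cause of these changes was not tested. Over all genes, Dclk3 was the 1 gene called. The DESeq2 Wald test on the filtered genes called 2 (Dclk3 and Malat1), leaving out single libraries 1 to 2 (2 without wild-type replicate 1, Dclk3 and 1520401A03Rik), and leaving out replicate 4 of both genotypes 3 (Dclk3, Gm26917 and Gpr101). EdgeR with the low-count filter removed called 1, Malat1.

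With the replicate number as a block 0 members were called, and Akap9 took the other sign, at 0.0018. Same-numbered libraries correlated between -0.28 and 0.053 in their deviations from the group means, and 1 of 8 libraries correlated best with its own number. No variation shared by number was seen, but these correlations cannot tell how the mice were numbered. At the members' depth, counting error alone gives coefficients of variation of at most 2.41%, below those between mice.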
